A study of Homo sapiens and Mus musculus with 9 samples.

Results

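The genes described here encode the proteins of the cytosolic ribosome. A gene was taken as a member when its name in the small RNA peak lists was RPL or RPS followed by a number, with an optional A, X, Y or L ending, or was RPLP0, RPLP1, RPLP2 or RPSA. By this rule 63 of 5746 named genes were members, 37 of the large subunit and 26 of the small subunit. RPLP0 and RPSA had no small RNA peak and so are not among them. The study asked whether a trans-acting RNA can be designed to steer translation initiation on a chosen mRNA. Its HEK293 samples, a human embryonic kidney cell line of wild-type genotype, comprise 4 ribosome profiling (Ribo-seq) libraries and 2 small RNA libraries. The Ribo-seq libraries are starved cells given a trans-RNA against ATF4 (2 libraries, called trans1 and trans2 after their labels), starved cells and control cells. Both transfected libraries have an identical treatment label, which leaves unsaid whether they received one RNA or several. The small RNA libraries are cap, made after dephosphorylation with most of the RNA then decapped, and total. Each condition has 1 library, so no difference below has a replicate check and no p-value is given. Intervals are exact Clopper-Pearson 95% intervals and cover counting error only. No starved library with an unrelated RNA and no HEK293 mRNA library was analysed here, so mRNA amount and translation per mRNA cannot be told apart.

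Ribosomal proteins are made in near-equal numbers and take a large share of a growing cell's translation. Most of their mRNAs begin, in vertebrates, with a C followed by an unbroken run of pyrimidines, the 5′ terminal oligopyrimidine (TOP) motif. The mTORC1 pathway controls translation of TOP mRNAs: when amino acids or growth factors are withdrawn, 4E-BP and LARP1 hold these mRNAs out of polysomes.

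The start of a TOP mRNA is the site at which its cap sits. The cap library placed a peak within 5 bases of it in 8 of 10 members where this could be checked. The windows below run from 5 bases before the RefSeq transcript start to the 25th base of the transcript, on GRCh38.p14, so nearly all of each is 5′ UTR. They are these 8 members, members with the highest peaks and a pair of paralogs. RPL29 and RPL10, whose peaks lay farther from the annotated start, are not shown. Capitals mark a run of at least 5 C or T that opens with a C within 3 bases of the annotated start, and the first ATG where the window reaches it.
RPL13A, chr19:49487603-49487632, plus strand: tcctcCTTTTCCaagcggctgccgaagATG
RPL22L1, chr3:170870171-170870200, minus strand: gcttcCTCTCTgctctcgcggccgactcgc
RPL27A, chr11:8682787-8682816, plus strand: ccttcCTTTTTCgtctgggctgccaacATG
RPL37A, chr2:216498839-216498868, plus strand: tcttcCTTTCTgggctcggacctaggtcgc
RPS6, chr9:19380212-19380241, minus strand: tggccCTCTTTTCCgtggcgcctcggaggc
RPS3, chr11:75399513-75399542, plus strand: cacttCCTTTCCTTTCagcggagcgcggcg
RPL10A, chr6:35468396-35468425, plus strand: atgctagtCTCTTTTCCggttagcgcggcg
RPS28, chr19:8321491-8321520, plus strand: acgtgaCTCCTCTCCgccagaccgccgccg
RPL41, chr12:56116628-56116657, plus strand: cctttCTCTCggccttagcgccattttttt
RPLP1, chr15:69452813-69452842, plus strand: gagagCCCCTTTCCTCagctgccgccaagg
RPL7L1, chr6:42879611-42879640, plus strand: gcgccgtagctaggagcggacgccataggt
RPS27L, chr15:63157453-63157482, minus strand: cgagcgcagatcgcttgcagcttgctagct

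Such a run was present in 38 of 48 members with a RefSeq promoter entry, against 16.0% of 27305 genes. The run was sought on the transcript strand only. RPL7L1 and RPS27L, paralogs of RPL7 and RPS27, had no run in their windows. In 10 members with a capped peak the first ATG lay within 50 bases of the annotated start, so the peak's distance from the start codon could be set against it. In RPL13A, RPL22L1, RPL27A, RPL37A and RPS6 the farthest upstream peak fell exactly on the annotated start. The peak distances were -22 nt in RPL13A, -28 nt in RPL22L1, -22 nt in RPL27A, -31 nt in RPL37A and -41 nt in RPS6. The RPS3 peak fell 1 base after the annotated start, on the second C of its run. The RPL10A peak fell 3 bases after the annotated start, which is the C that opens its run. The RPS28 peak fell 4 bases after it, inside the run. The remaining pair had peaks upstream of the start, at an offset of -11 nt in RPL29 and -120 nt in RPL10. RPL10 has several annotated starts, and only 1 of them had its first ATG within 50 bases. Its offset therefore depends on the entry used, which may not be the transcript that carries the peak.

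Capped small RNA on ribosomal protein transcripts lay almost wholly in the 5′ UTR. Of 45 sense peaks on 30 members in the cap library, 41 peaks in 29 members were in the 5′ UTR, 3 in the coding region and 1 in the 3′ UTR. The 5′ UTR share of peaks was 91.1% (interval 78.8% to 97.5%) in members and 61.4% (60.0% to 62.9%) in all other genes. In the total library the order was turned: 172 of 184 sense peaks, in 56 members, lay in the coding region, 11 in the 5′ UTR and 1 in the 3′ UTR. The coding share was 93.5% (88.9% to 96.6%) in members and 54.9% (53.1% to 56.6%) in other genes. For both libraries the interval of the members did not meet that of the other genes. These intervals count every peak as separate, although several can lie on the same gene, so they do not cover the spread between genes.

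**Figure D1:**
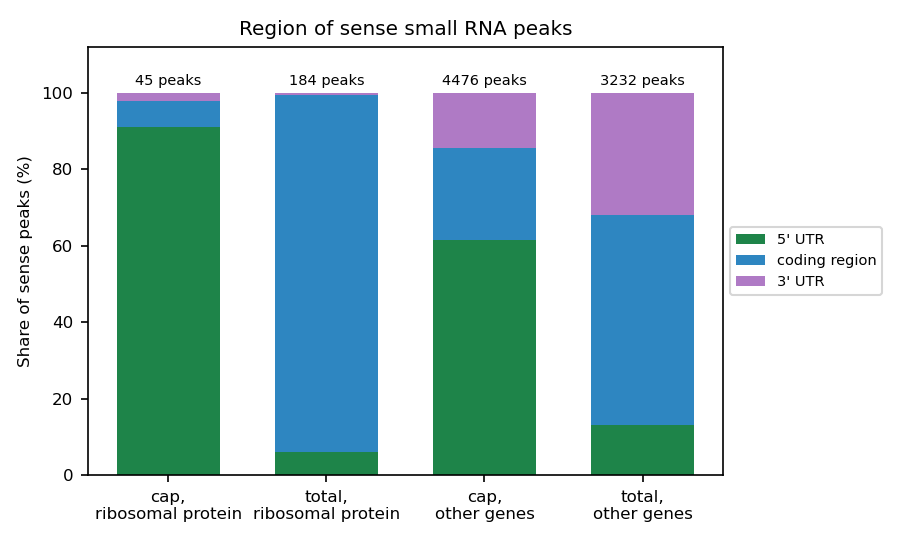
Stacked bars give the share (%) of sense small RNA peaks in the 5′ UTR, coding region and 3′ UTR for the cap and total libraries, in ribosomal protein genes and in other genes. In ribosomal protein genes 91.1% of cap peaks are in the 5′ UTR and 93.5% of total peaks are in the coding region.

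Members made up 0.995% of sense peaks in the cap library (interval 0.727% to 1.33%) and 5.39% in the total library (4.65% to 6.20%). They held 0.0654% of the sense peak reads in the cap library and 0.276% in the total library, since the reads of both lists are concentrated on other genes. Most member peaks were small: 32 of 45 cap peaks and 152 of 184 total peaks had at most 10 reads, and the lists hold no peak under 4 reads. Library depth is unknown for these lists, so a gene with no peak may only be below that limit. Antisense peaks were nearly absent, with 0 of 1810 in the cap library and 1 of 2424 in the total library on a member. The count of 0 allows a share of up to 0.204% by the exact interval.

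RPLP1, a subunit of the acidic stalk that recruits elongation factors, had the most capped reads: 60 at -129 nt and 9 at -130 nt. RPS16, a small subunit protein at the tRNA path, had 3 capped peaks that summed to 27 reads, the highest with 13 reads at -53 nt. RPL7L1 had 26 capped reads, of which 16 were at -38 nt and the rest at 6 and 21 nt inside the coding region. RPL41, a very short basic peptide of the large subunit, had 1 capped peak of 25 reads at -155 nt. RPL8 had 25 capped reads over 3 peaks, RPL13A had 19 over 3, and RPL38 had 18. These peaks were in the 5′ UTR in every gene of this group other than RPL7L1.

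In the total library RPL37, a zinc-binding protein of the large subunit, led with 140 reads over 5 peaks, 86 of them at 24 nt and 32 at 22 nt. RPLP2, the other acidic stalk protein, had 135 reads over 6 peaks, 83 of them at 153 nt. RPL37A had 81 reads over 10 peaks, RPL27A 67 over 7 and RPS4X 64 over 9. RPS2 had 63 reads over 10 peaks, RPL7A 59 over 8 and RPS3 55 over 10. RPS4X is the X-linked gene of a small subunit protein. The gene orders of the libraries differed: RPLP1 led in the cap library and RPL37 in the total library, and 26 members had peaks in both. A peak stood at the same position in both libraries in 2 cases, RPL13 at -212 nt with 14 cap reads and 11 total reads, and RPLP2 at 85 nt with 5 cap reads and 6 total reads.

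**Figure D2:**
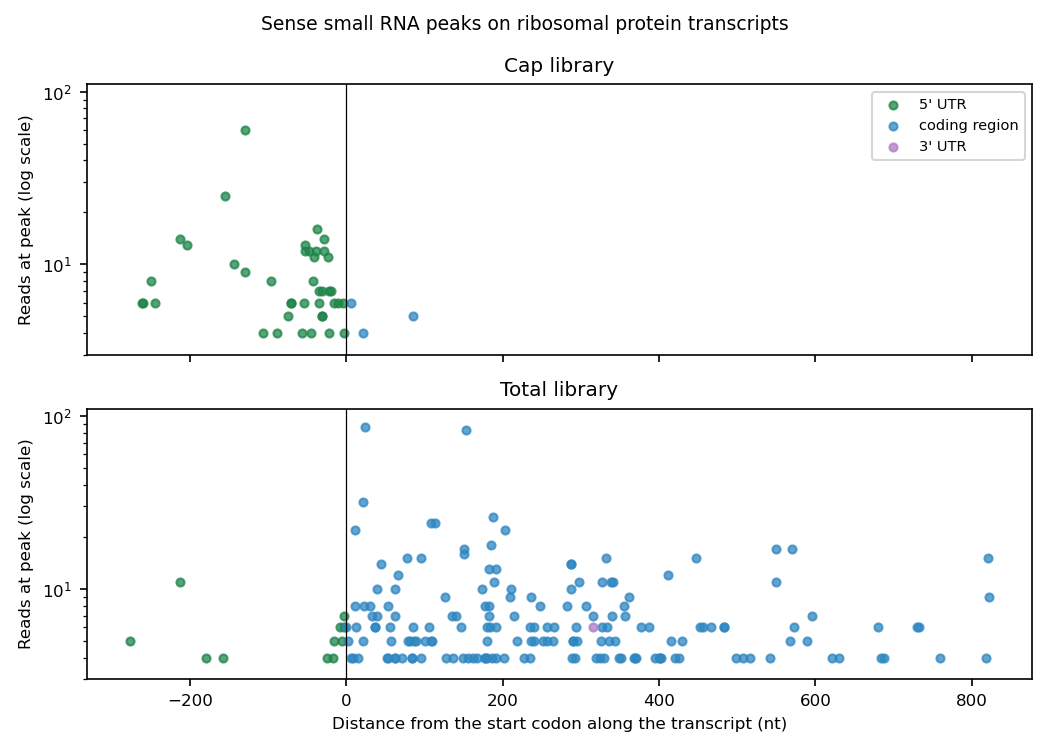
Each point is a sense small RNA peak on a ribosomal protein transcript, by distance from the start codon (nt) and reads at the peak (log scale), in the cap library (upper panel) and total library (lower panel); 1 cap peak at 2451 nt is beyond the axis. Cap peaks crowd upstream of the start codon, up to 60 reads, and total peaks spread over the coding region, up to 86 reads.

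The total library's coding peaks followed the reading frame more closely in members than in other genes. Of 172 coding peaks on members, 85 were a multiple of 3 nt from the start codon, which is 49.4% (41.7% to 57.1%), against 691 of 1773 in other genes, 39.0% (36.7% to 41.3%). For 123 of these peaks the coding length could be recovered from the footprint tables, and their median position was 46.3% of the way along the coding region. They include an RPL41 peak at 84 nt and an RPS19 peak at 456 nt. Both are labelled as coding but lie past the recovered coding lengths of 78 nt and 438 nt. At 111 of them the control library's footprint level at the same base could be read, and 86 stood above the median position of their own transcript. The median percentile of footprint level at these bases was 76.3 among the positions of the same transcript. Peaks and footprints both lay most often in the frame of the start codon, and positions of all frames were ranked together. Neither positions of the same frame nor other genes were compared, so overlap beyond the shared frame was not tested. Peak position and footprint position may be counted from different ends of a read, which the sources do not give.

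In the Ribo-seq libraries 40 members had footprints that could be counted, 26 of the large and 14 of the small subunit. The other 23 comprise 22 that are not in the footprint tables used here and RPS4Y1, which had too few values. The recovered reads over 10281 transcripts were 6145477 in trans1, 7553711 in trans2, 9401743 in starvation and 10682921 in control. Members took 10.6% of these reads in trans1, 8.20% in trans2, 8.05% in starvation and 9.34% in control. RPL41 alone weighs on this order: without it the shares were 8.46% in trans1, 7.25% in trans2, 6.77% in starvation and 8.48% in control. In-frame periodicity was high, with 89.2% of members' reads near the start in the main frame in trans1, 87.5% in trans2, 88.3% in starvation and 87.0% in control. In bulk libraries fewer cells of a type and less RNA per cell cannot be told apart. Of 8 HEK293 markers 6 were named in the small RNA peak lists, and NEFL and CDH2 had counted transcripts. Of 8 markers of other cell types 1 was named there and 0 were counted. Their absence therefore says nothing about cell identity.

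Footprint levels, in CPM (reads of a transcript over all recovered reads, times 1000000), ranged widely within the family. The median member had 1970 CPM in trans1, 1919 in trans2, 1759 in starvation and 2386 in control, and the median of all transcripts was 29.5 in trans1, 32.4 in trans2, 30.7 in starvation and 30.9 in control. Of the 100 transcripts with most footprints, members were 28 in trans1, 25 in trans2, 24 in starvation and 27 in control. Per kilobase of coding length the median member had 3675 CPM in trans1, 3616 in trans2, 3092 in starvation and 3815 in control. RPL41 was the highest per length in all 4 libraries, at 277446 CPM per kilobase in trans1, 121594 in trans2, 163681 in starvation and 109641 in control. Its coding region is 78 nt, so few positions carry this level. RPL38 came next with 29366 CPM per kilobase in trans1, 15721 in trans2, 17340 in starvation and 20010 in control. RPL22L1, the paralog of RPL22, was lowest with 89.5 in trans1, 76.8 in trans2, 55.3 in starvation and 154 in control.

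**Figure D3:**
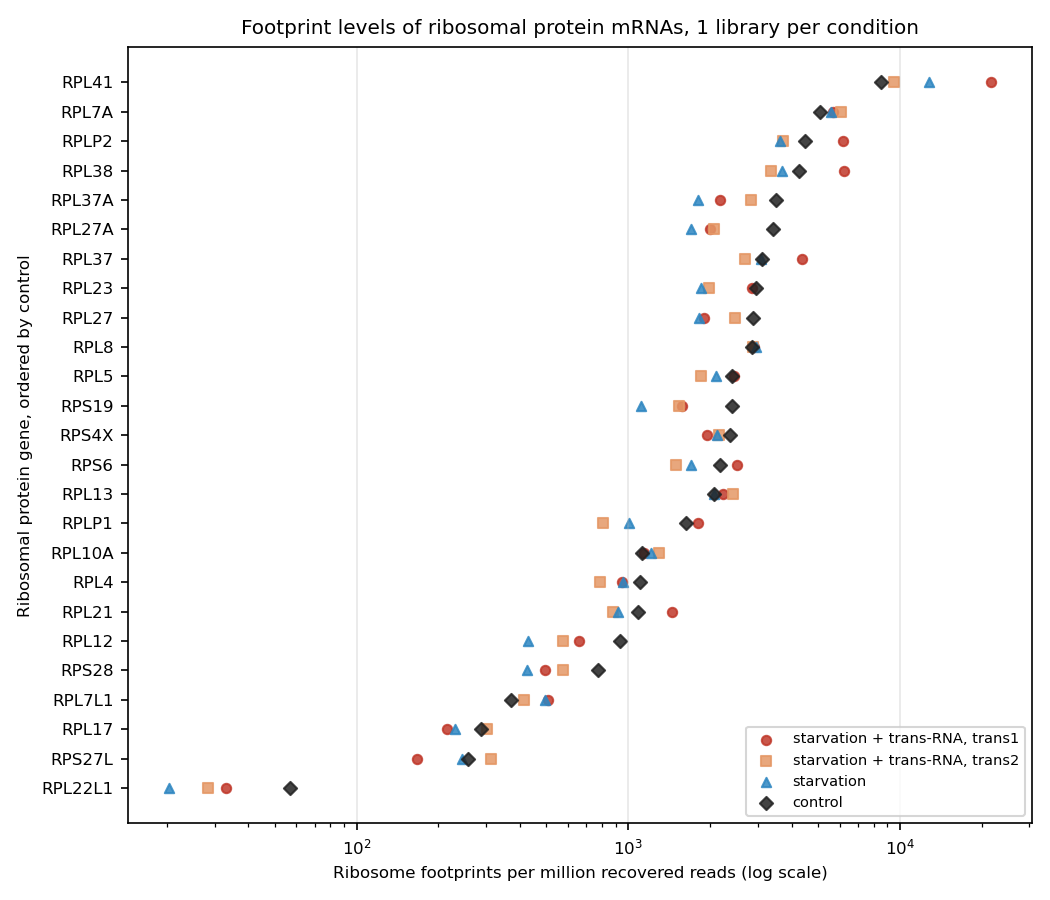
Points give footprint levels in CPM (log scale) of the ribosomal protein transcripts among the 6 highest or 6 lowest ratios of a comparison, with the stalk genes and paralogs, in trans1, trans2, starvation and control, 1 library each, ordered by control. RPL41 is highest at 21641 in trans1 and 8552 in control, RPL22L1 is lowest, and starvation lies left of control for most genes.

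Starved cells had fewer footprints than control cells on most ribosomal protein mRNAs. The log2 ratio of starvation over control was below 0 for 34 of 40 members, where 50.3% of 10276 transcripts were below 0. Its median was -0.32 in members and 0.00 over all transcripts. At least 1.5-fold lower were 10 members, where 10.2% of all transcripts were, and 0 members were at least 1.5-fold higher, where 10.2% of all transcripts were. All 14 small subunit members were below 0, with a median of -0.34, and 20 of 26 large subunit members, with a median of -0.27. From reads in the stop codon window alone 17 members were at least 1.5-fold lower, but so were 23.3% of all transcripts.

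RPL22L1 was farthest below: it had 20.4 CPM in starvation and 56.8 in control, a log2 ratio of -1.43 (counting interval -1.72 to -1.24). RPL12, which sits at the base of the stalk, had 428 CPM in starvation and 933 in control, a log2 ratio of -1.12. RPS19, a small subunit protein mutated in Diamond-Blackfan anaemia, had 1117 CPM in starvation and 2405 in control, a log2 ratio of -1.11. All of these were below control by a factor over the 1.5-fold size rule. RPL27A had 1709 CPM in starvation and 3416 in control, a log2 ratio of -0.998. RPL37A had 1809 CPM in starvation and 3509 in control, and RPS28 had 422 in starvation and 772 in control, with log2 ratios of -0.96 and -0.87. At the other end, RPL41 had 12767 CPM in starvation and 8552 in control, a log2 ratio of 0.58, just under the 1.5-fold size rule. RPL7L1, whose product takes part in ribosome assembly, had 493 CPM in starvation and 370 in control, a log2 ratio of 0.41. RPL7A, RPL10A, RPL8 and RPL13 followed at 0.14, 0.10, 0.05 and 0.01.

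The paralogs, encoded by genes close in sequence to a standard member, did not all lie on one side of control. RPL22L1 was the member farthest below control in starvation, RPL7L1 was above it, and RPS27L, a p53 target, had 244 CPM in starvation and 257 in control. RPL22, RPS27, RPL39 and RPL26L1 are not among the members, and RPL7 and RPL26 are not in the footprint tables used here. RPS4X had 2121 CPM in starvation and 2367 in control.

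Trans1 had more footprints than starvation on most ribosomal protein mRNAs. The log2 ratio of trans1 over starvation was above 0 for 34 of 40 members, where 41.3% of 10267 transcripts were above 0. Its median was 0.27 in members and -0.08 over all transcripts, a shift that does not change the direction when ratios are centred on it (0.35). At least 1.5-fold higher were 8 members, all of the large subunit, where 6.42% of all transcripts were, and 0 members were at least 1.5-fold lower, where 8.49% were. The starvation library enters both this comparison and the one with control, so a low or high starvation value moves both.

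RPLP1 had the largest ratio: 1805 CPM in trans1 and 1007 in starvation, a log2 ratio of 0.84 (0.80 to 0.88). RPLP2 had 6156 CPM in trans1 and 3626 in starvation, a log2 ratio of 0.76. RPL41 had 21641 CPM in trans1 and 12767 in starvation, a log2 ratio of 0.76. RPL38, a large subunit protein tied to Hox mRNA translation in mice, had 6255 CPM in trans1 and 3693 in starvation, a log2 ratio of 0.76. RPL22L1 and RPL21 followed with log2 ratios of 0.67 and 0.66. RPS27L was lowest, with 167 CPM in trans1 and 244 in starvation, a log2 ratio of -0.55. RPS4X, RPL17, RPL10A, RPL8 and RPL4 were between -0.12 and -0.02.

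Trans2, under the same treatment label, stood nearer to starvation. The log2 ratio of trans2 over starvation was above 0 for 27 of 40 members, where 54.4% of 10278 transcripts were above 0, and its median was 0.10 in members and 0.04 over all transcripts. At least 1.5-fold higher was 1 member, RPL37A, where 8.77% of all transcripts were, and 0 members were at least 1.5-fold lower, where 2.17% were. From the start window alone there were 4 members at least 1.5-fold higher, where 22.4% of all transcripts were, and the median was 0.21. RPL37A had 2822 CPM in trans2 and 1809 in starvation, a log2 ratio of 0.64. RPS19, RPL22L1, RPS28, RPL27 and RPL12 had log2 ratios of 0.46, 0.45, 0.45, 0.44 and 0.43. RPL41 was lowest, with 9484 CPM in trans2 and 12767 in starvation, a log2 ratio of -0.43, and RPLP1 had 807 CPM in trans2 and 1007 in starvation, a log2 ratio of -0.32. RPL4, RPL7L1, RPL37 and RPL5 were between -0.28 and -0.18.

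The trans-RNA libraries differed from each other on several of these mRNAs. The median log2 ratio of trans1 over trans2 was 0.12 in members and -0.11 over all transcripts, and 7 members were at least 1.5-fold higher in trans1, where 5.54% of transcripts were. RPL41 and RPLP1 had log2 ratios of trans1 over trans2 of 1.19 and 1.16, RPL38 of 0.90, RPS6 of 0.74, RPLP2 of 0.73 and RPL21 of 0.72. RPS27L was the only member at least 1.5-fold lower in trans1, with 167 CPM in trans1 and 312 in trans2, where 17.2% of transcripts were. In 11 members trans1 was above starvation while trans2 was below it, a pattern not counted over all transcripts.

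Against control cells, the members' median in trans1 was close to that of all transcripts, and in trans2 it was lower. The median log2 ratio of trans1 over control was -0.04 in members, a sign that turned to 0.03 when ratios were centred on all transcripts, whose median was -0.07. At least 1.5-fold lower in trans1 were 7 members, 17.5%, near the 16.6% of all transcripts, and 3 after centring, where 14.0% were. RPL27A, RPL22L1 and RPL37A were lowest with log2 ratios of -0.78, -0.76 and -0.69, and RPL41 was highest with 1.34. The median log2 ratio of trans2 over control was -0.21 in members and 0.05 over all transcripts, and 5 members were at least 1.5-fold lower, where 6.63% of transcripts were. RPLP1 and RPL22L1 were lowest in trans2, with log2 ratios of -1.02 and -0.98, and RPS27L was highest with 0.28. Control had the highest level of the 4 libraries in 20 members, trans1 in 13, trans2 in 6 and starvation in 1. No such count was made over all transcripts, so whether members differ from them in this is unknown.

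**Figure D4:**
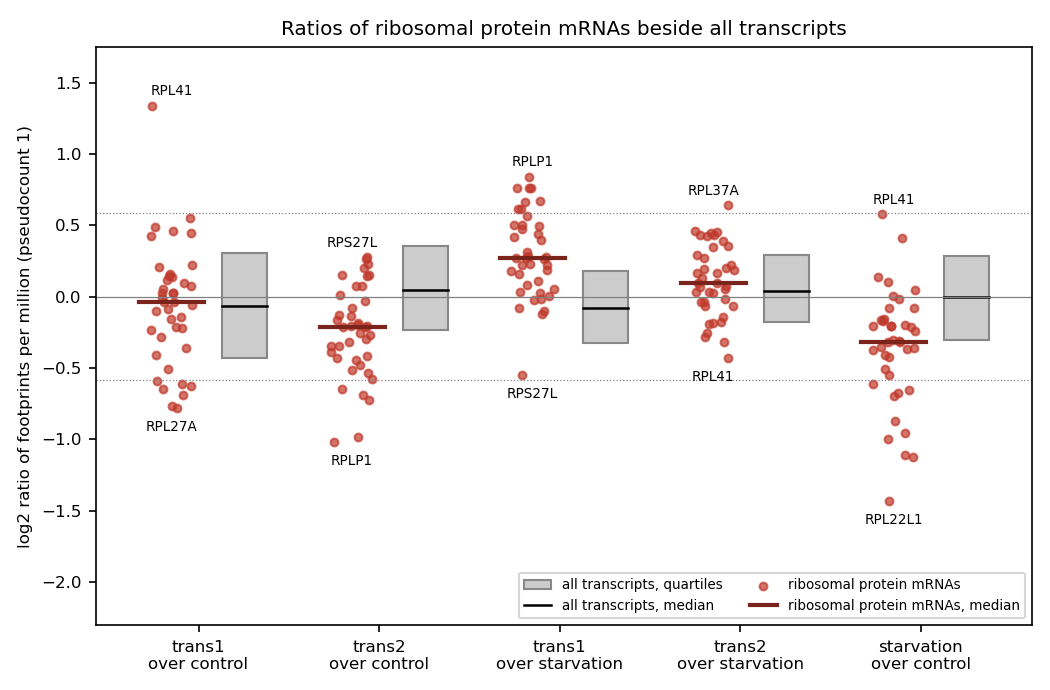
Red points are log2 ratios of footprint CPM (pseudocount 1) of 40 ribosomal protein transcripts in 5 comparisons, dark red bars their medians, and grey boxes the quartiles of all transcripts with the median in black; dotted lines mark 1.5-fold. Members lie below the box median in starvation over control (-0.32 against 0.00) and above it in trans1 over starvation (0.27 against -0.08).

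Members with and without the pyrimidine run could be compared where both a promoter entry and reads existed. The 8 without it include the paralogs RPL7L1 and RPS27L, and RPL17, with 88.0% of its counted codons empty. In starvation over control the 24 members with the run had a median log2 ratio of -0.36 and the 8 without it -0.18. Below 0 there were 20 of the 24 and 7 of the 8. In trans2 over starvation the medians were 0.11 with the run and 0.05 without it. In trans1 over starvation the medians were 0.41 in the 24 with the run, of which 1 was below 0, and -0.01 in the 8 without, of which 4 were below 0. Among other genes, 416 with such a run and 1943 without had medians of 0.00 and -0.02 in starvation over control. The other genes had medians of -0.09 with the run and -0.07 without it in trans1 over starvation. These are descriptions over members that share libraries, and a run of this kind near an annotated start is a match of letters only.

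Related gene groups moved unlike the ribosomal proteins in part. Of the 22 translation factors and other TOP mRNAs on the list, 6 had counted footprints, and 5 of the 6 were above 0 in starvation over control with a median log2 ratio of 0.28. Of the same 6, 5 were below 0 in trans1 over starvation, with a median of -0.20, and the starvation library enters both comparisons. EIF3A, a scaffold of the initiation factor eIF3, had 325 CPM in starvation and 173 in control, and EEF2, the elongation factor, had 821 in starvation and 690 in control. Of 16 mitochondrial ribosomal protein transcripts 13 were below 0 in starvation over control, with a median of -0.21, and 15 were below 0 in trans1 over starvation, with a median of -0.19. In trans1 over starvation the cytosolic and mitochondrial families therefore lay on opposite sides of 0. MRPL22 was the exception, with 371 CPM in trans1, 699 in trans2, 230 in starvation and 172 in control. Of 12 ribosome assembly factor transcripts 10 were below 0 in starvation over control, with a median of -0.27, and 9 were above 0 in trans1 over starvation, with a median of 0.16.

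On many members a large part of the footprints stood at a single position. Among 39 members with at least 1000 reads in every library, the highest position held a median of 11.5% of the transcript's reads in trans1, 11.1% in trans2, 11.2% in starvation and 8.76% in control. The medians in 984 other transcripts of that depth, whose coding regions are mostly longer, were 8.99% in trans1, 7.24% in trans2, 8.41% in starvation and 6.89% in control. In 13 of 40 members the highest position was the same in all 4 libraries, which was not counted in other transcripts.

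On RPL38 the position 144 nt after the start codon held 59.9% of reads in trans1, 28.4% in trans2, 49.0% in starvation and 24.3% in control. On RPS14, a small subunit protein at the mRNA platform, position 9 held 38.6% in trans1, 17.8% in trans2, 28.7% in starvation and 14.9% in control. On RPL37 position 165 held 27.7% in trans1, 16.5% in trans2, 21.9% in starvation and 10.6% in control. These genes shared an order, with trans1 highest, starvation next, then trans2, and control lowest. The family as a whole did not share it. The share at each member's highest position was higher in trans1 than in starvation in 21 of 40 members. It was higher in starvation than in control in 25 of 40. Other transcripts were not counted in this way. On RPL9 position 174 held 24.7% in trans1, 7.54% in trans2, 13.2% in starvation and 6.17% in control. On RPL7A position -3 held 28.0% in trans1, 14.2% in trans2, 24.0% in starvation and 11.6% in control. RPL37A ran the other way, with 22.2% at position 144 in trans1, 41.0% in trans2, 29.5% in starvation and 41.3% in control. RPL12 did as well, with 8.10% at position 480 in trans1, 22.5% in trans2, 15.1% in starvation and 19.3% in control. So did RPL27A at position -12, with 3.27% in trans1 and 18.0% in control. RPL17 at position 501 had 5.14% in trans1 and 24.1% in control, and RPL27 at position 159 had 4.15% and 17.6%.

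**Figure D5:**
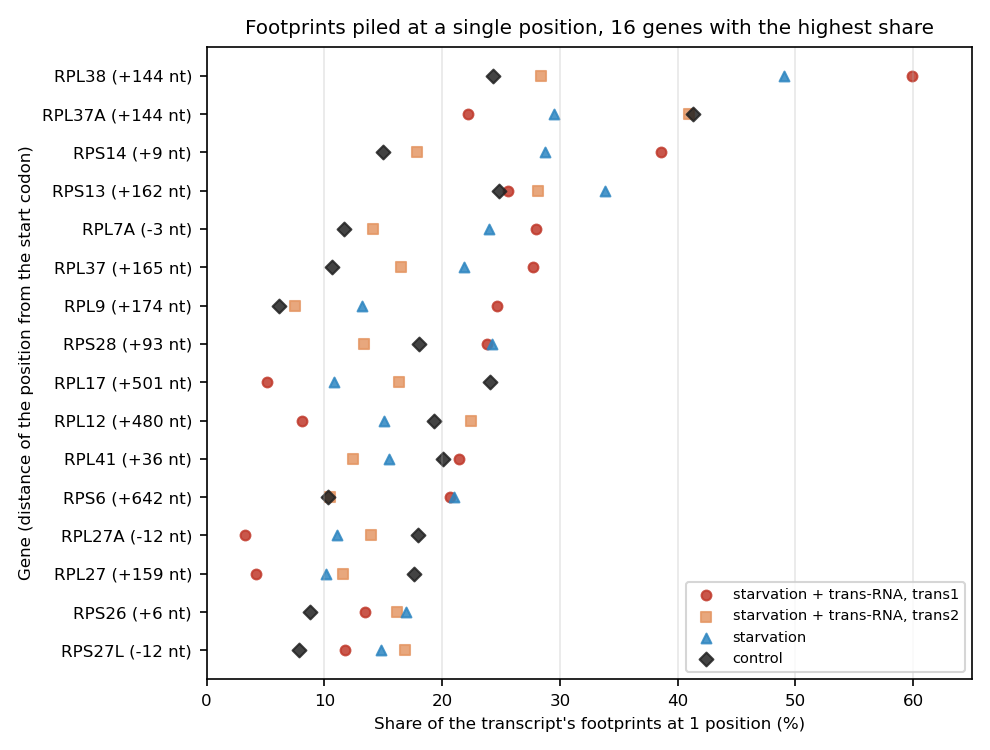
Points give the share (%) of a transcript's footprints at its highest position over the 4 libraries, for the 16 ribosomal protein genes with the highest share, chosen by that value; the distance of the position from the start codon is beside each name. RPL38 reaches 59.9% in trans1 and 24.3% in control, and RPL37A 22.2% in trans1 and 41.3% in control.

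These positions set part of the level of their transcripts. For RPL38 the log2 ratio of starvation over control was 0.80 at position 144 and -0.78 at all other positions, against -0.21 for the whole transcript. For RPS14 it was 0.58 at position 9 and -0.62 elsewhere, and for RPL7A 1.18 at position -3 and -0.08 elsewhere. With footprints at the highest position of each transcript left out, 36 of 40 members were below 0 in starvation over control, with a median of -0.34 on the CPM scale. In trans1 over starvation 34 of 40 were above 0 away from it, with a median of 0.27. In trans2 over starvation 32 of 40 were above 0 away from it, with a median of 0.15, and at the highest position itself 15 of 40 were above 0, with a median of -0.25. These counts at and away from the highest position cover members alone, with no share over all transcripts beside them.

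Few codons of most members were without a read. A median of 3.54% of codons had no read in any library over 39 members, and 22.7% over 1547 other transcripts with at least 4000 reads in all. Most members had far more reads than this limit and depth was not matched, so these medians cannot be compared directly. Empty codons also do not measure how evenly the reads are spread. RPL17 was the exception with 88.0% of its counted codons empty, followed by RPS27A, a ubiquitin fusion, with 44.5%. Ribosomal protein genes have many processed pseudogenes with near-identical sequence. The sources used here do not give how reads that match several places were counted, so the levels of such genes are uncertain, RPL17 and RPS27A most.

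Summed over reads, the start and stop codon peaks held a smaller share on members than on other transcripts, which the median transcript did not show throughout. The highest position before the coding region was -12 nt from the start codon in all 4 libraries, and the highest near the end was -18 nt from the stop codon. The 3 nt around the start peak held 0.684% of members' start window reads in trans1 (0.661% to 0.708%), 1.62% in trans2 (1.59% to 1.66%), 1.15% in starvation (1.13% to 1.18%) and 2.35% in control (2.31% to 2.38%). In other transcripts they held 1.81% in trans1, 2.29% in trans2, 2.01% in starvation and 2.48% in control. RPL27A decided much of the members' sum: it had 7.23% of its start window reads at this peak in trans1, 25.4% in trans2, 22.8% in starvation and 29.8% in control. Without RPL27A the members' share was 0.607% in trans1, 1.13% in trans2, 0.826% in starvation and 1.41% in control, and the order of the libraries was the same. The median share per transcript was instead higher in members: 0.261% in trans1, 0.781% in trans2, 0.390% in starvation and 0.455% in control, against 0% in trans1, 0.312% in trans2, 0% in starvation and 0.229% in control for other transcripts with at least 50 reads in the window. Depth was not matched in these medians or in those below. With few reads in the window a 3 nt peak is often empty, so the difference in medians may reflect depth, which was not tested.

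The 3 nt around the stop peak held 1.23% of members' stop window reads in trans1, 1.95% in trans2, 1.48% in starvation and 2.38% in control. In other transcripts they held 4.50% in trans1, 3.84% in trans2, 4.16% in starvation and 4.31% in control. The median per transcript was 0.494% in trans1, 0.565% in trans2, 0.538% in starvation and 1.29% in control for members, and 0.0817% in trans1, 0.716% in trans2, 0.153% in starvation and 1.10% in control for other transcripts. By these medians, which are not matched for depth, members were lower in trans2 alone. RPL12 was the member with the largest share at the stop peak in 3 libraries, with 35.8% in trans2, 25.9% in starvation and 32.0% in control, and it had 13.4% in trans1. RPL8 was highest in trans1, with 21.0%. Positions were used as deposited, with no offset added, and the start peak itself stood at -12 nt. Reads listed before the start codon can therefore belong to ribosomes at or past it, so their share is not a measure of 5′ UTR occupancy. Reads before the start codon were 5.39% of the members' start window in trans1, 5.95% in trans2, 6.28% in starvation and 6.66% in control. In other transcripts they were 6.33% in trans1, 6.59% in trans2, 5.94% in starvation and 7.31% in control. With 9 nt at the start peak left out, the order of the libraries was another: members had 4.52% in trans1, 3.94% in trans2, 4.85% in starvation and 3.68% in control, and other transcripts 3.49% in trans1, 3.08% in trans2, 2.79% in starvation and 3.34% in control. By the median per transcript members were then lower, with 0.511% in trans1, 0.600% in trans2, 0.731% in starvation and 0.875% in control, against 0.912% in trans1, 1.61% in trans2, 0.966% in starvation and 1.62% in control for other transcripts. RPL7A, with its high position at -3, had 47.9% of start window reads at positions before the start codon in trans1, 30.0% in trans2, 43.4% in starvation and 27.3% in control. The same limit on positions holds for it.

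The authors' deposited table of log2 fold changes per reading frame covered 58 members with 182 frames. In the authors' deposited table, 36 of 37 coding frames of members were below 0 in starvation over control, where 69% of 2118 coding frames were, with a median of -0.44 in members and -0.14 over all. In the authors' deposited table, 16 member coding frames were at least 1.5-fold lower, where 9.96% of coding frames were. The table also holds most members that lack recovered reads here. For 19 such genes with a coding or truncated frame, the authors' deposited table gave a median of -0.47 and all 19 below 0 in starvation over control. Over all genes 69.0% of coding and 62.3% of truncated frames were below 0. The log2 ratio of the recovered totals of starvation over control was -0.18. Of the same 19 genes 17 were below 0 in trans1 over starvation, where 97.3% of coding and 89.9% of truncated frames were. In trans2 over starvation 16 were, where 87.0% and 75.6% of these frames were. The scaling of the authors' deposited table is not stated, and its direction was taken from its sign against the recovered reads of the same transcripts. Across 865 coding frames, which are not independent, Pearson r was 0.80 in starvation over control. It was lower, at 0.49, in trans1 over starvation and 0.67 in trans2 over starvation. For truncated frames r was 0.58, 0.36 and 0.42 in the same order of comparisons.

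In trans1 over starvation the authors' deposited table put 34 of 37 member coding frames below 0, the reverse of the direction from recovered reads. It put 97.3% of all coding frames below 0 as well, with medians of -0.40 in members and -0.48 over all, so that members stood 0.08 above. The truncated frames of the authors' deposited table, on 44 members, ran the other way, with medians of -0.36 in members and -0.27 over all, and over all frame types the difference was 0.01. The log2 ratio of the recovered totals of these libraries was -0.61. The 3 member coding frames above 0 in the authors' deposited table for this comparison were RPLP1 at 0.16, RPL41 at 0.13 and RPL23 at 0.01. In trans2 over starvation the authors' deposited table gave medians of -0.14 in members and -0.25 over all coding frames, and of -0.17 in members and -0.10 over all truncated frames.

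Upstream frames of members were lower still in starved cells. In the authors' deposited table, 25 of 28 upstream frames on 12 members were at least 1.5-fold lower in starvation over control, where 21.3% of 6143 upstream frames were, with a median of -1.14 in members and -0.14 over all. Overlapping frames of a gene share reads and several have identical values, so these are not 28 separate measurements. RPL41 shows the contrast within a transcript: in the authors' deposited table its 7 upstream frames lay between -1.53 and -1.09 and its coding frame at 0.52. RPS26 and RPS29 had the lowest upstream frames in the authors' deposited table, at -2.20 and -2.13, and RPL17 had the only one above 0, at 0.91.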

How the data were processed

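Footprint tables deposited by the authors hold, per transcript and library, a signal at each base from 30 nt before to 300 nt after the start codon, and around the stop codon. Per the labels' protocols footprints of 25 to 35 nt were isolated. The submitters' processing notes name STAR 2.7.10a and Bowtie 1.2.3, beside cutadapt 2.8 and also bcl2fastq 2.20.0.422; offsets, annotation and treatment of reads with several matches are not given in the sources used here. The signal of a base is a whole number of reads times a constant per transcript and library, so reads and coding length were recovered from the common step, where at least 8 positions in at least 2 libraries were filled. Of 16984 transcripts 10281 were recovered. Where start and stop windows overlapped, equal reads in both were a condition of recovery, so their agreement is no separate check. Of the 40 recovered members 25 had such an overlap, and the others had none. Recovery and ratios were tested on simulated data.

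Ratios are log2 of CPM plus 1, for transcripts with at least 1 CPM in either library, with a 1.5-fold size rule. The authors' peak lists give a count of reads per peak with its distance from the start codon, as deposited. The authors' deposited fold tables are on a log2 scale per reading frame. Members and lists were chosen with earlier results of these data known. The text names, for each comparison, the 6 highest and 6 lowest members with at least 10 CPM, the stalk genes and paralogs, and the 8 members with most peak reads per library; single-position examples were chosen after their values were seen, and some genes are not reported here. Alternatives were other pseudocounts, scalings, filters, windows and folds. Each group has 1 library. Mouse liver libraries and lists under mouse identifiers were not used here. Scripts ran in Python 3.11.15 with NumPy 2.4.6, pandas 2.3.3 and SciPy 1.17.1. Sequences are from RefSeq, GRCh38.p14.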

Additional observations from a re-analysis of the deposited data

How the results depend on the processing

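No paired analysis was possible because each condition has 1 library. The median log2 ratio of members kept its direction under every alternative run, except trans1 over control, which was -0.04 and turned to 0.0305 when centred on the median of all transcripts. Values that moved by more than their counting error are given next, and the cause was not tested. In starvation over control the median was -0.23 from the start window alone, -0.41 from the stop window alone and -0.45 from coding reads where the windows meet, an alternative added after seeing the data. Members at least 1.5-fold lower there numbered 10, and 17 from the stop window alone, 3 at 2-fold and 18 at the smaller alternative fold, where 23.3%, 1.95% and 23.8% of all transcripts were. In trans1 over starvation the median was 0.35 after centring, 0.31 when scaled to reads outside ribosomal protein transcripts, 0.23 from the stop window and 0.43 from coding reads where the windows meet. Members higher there numbered 8 at 1.5-fold, 0 at 2-fold and 16 at the smaller fold, beside 6.42%, 1.36% and 16.1% of all transcripts. In trans2 over starvation the median was 0.0598 after centring, 0.21 from the start window, 0.25 from the stop window, 0.13 without the highest position and 0.16 from coding reads where the windows meet. Members higher there numbered 1, and 4 from the start window, 2 from the stop window, 2 without the highest position, 0 at 2-fold and 10 at the smaller fold, beside 8.77%, 22.4%, 22.7%, 9.44%, 1.92% and 22.5% of all transcripts. In trans1 over trans2 the median was 0.24 after centring, 0.16 when scaled to reads outside ribosomal protein transcripts, 0.0744 from the start window, 0.0723 from the stop window and 0.16 from coding reads where the windows meet. In trans1 over control it was -0.15 from the start window, -0.135 from the stop window and -0.10 from coding reads where the windows meet. In trans2 over control it was -0.26 after centring, -0.16 from the start window, -0.25 from the stop window and -0.30 from coding reads where the windows meet. All 40 member ratios past 1.5-fold kept their sign in the 398 alternative values computed for them. Leaving out RPL41, also added after seeing the data, kept the trans1 over starvation median within its counting error.

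The members' share before the start codon was 1.82% in trans1, 2.93% in trans2, 2.15% in starvation and 3.01% in control as the median of members, and 7.27% in trans1, 6.85% in trans2, 7.85% in starvation and 7.44% in control without the member with most window reads. The members' share at the start codon peak was 0.261% in trans1, 0.781% in trans2, 0.39% in starvation and 0.455% in control as the median of members, 0.942% in trans1, 1.93% in trans2, 1.48% in starvation and 2.7% in control without the member with most window reads, and 0.87% in trans1, 2.02% in trans2, 1.43% in starvation and 2.98% in control over 9 nt. The members' share at the stop codon peak was 0.494% in trans1, 0.565% in trans2, 0.538% in starvation and 1.29% in control as the median of members, 1.71% in trans1, 2.36% in trans2, 1.92% in starvation and 2.73% in control without the member with most window reads, and 2.62% in trans1, 3.16% in trans2, 2.9% in starvation and 3.74% in control over 9 nt. Without RPL27A, added after seeing the data, the start peak share was 0.607% in trans1, 1.13% in trans2, 0.826% in starvation and 1.41% in control. The ratio of cap to total sense peaks on members was 0.245, and 0.378 for peaks of at least 10 reads and 0.478 for the highest peak per gene and region. Of cap peaks of at least 10 reads 100% were in the 5′ UTR. Of total peaks 97.3% were in the coding region at 10 reads or more, and 83.6% when the highest peak per gene and region was kept. In the authors' deposited table the members' median over all frame types was -0.65 in starvation over control, -0.38 in trans1 over starvation and -0.14 in trans2 over starvation, and over coding frames alone -0.44, -0.40 and -0.14. Without replicates, library-to-library spread is unknown for every value.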
